A study of Mus musculus with 8 samples.

Results

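The PRAME-like genes examined here are 9 mouse genes: Pramef6, Pramef8, Pramef12, Pramef17, Pramef20, Pramef25, Pramel5, Pramel6 and Pramel7. They were taken by name from a count table of 46078 genes. 8 of them were found by their symbol, and Pramef20 was found by its identifier, ENSMUSG00000073721, which the table lists as Gm13125. The 9 were selected on their counts in these same 8 libraries, with the contrast of KO and control already known, so their difference between the groups is given as a description, without a test. RefSeq naming places 43 further genes of the table in the PRAME family, 52 in all, and these were examined beside the 9.

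The study compared fully grown oocytes at the germinal vesicle (GV) stage, arrested in meiotic prophase, from Zp3-Cre control mice and from mice labelled CNOT7&8 KO. In the KO, floxed Cnot7 and Cnot8 (fl/fl, both genes) were deleted by the same Zp3-Cre transgene, whose promoter is active in growing oocytes, so both groups carry Cre and the deletion follows the start of oocyte growth. Females were 4 weeks old, had a C57BL/6J background and had received pregnant mare serum gonadotropin. Each group had 4 total RNA libraries of 100 oocytes, and how many mice went into a library is not given in the sources used here. Cnot7 and Cnot8 are alternative deadenylase subunits of the CCR4–NOT complex, which holds Cnot6 or Cnot6l as its other catalytic subunit and shortens the poly(A) tails of mRNAs, and the comparison asks how the oocyte's mRNAs differ when both are lost.

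PRAME proteins are built from leucine-rich repeats. Human PRAME is known as a substrate receptor of an E3 ubiquitin ligase built on the scaffold CUL2, and Pramel7 is known to act through the same ligase in the naive pluripotent cells of the inner cell mass, where it brings about the breakdown of UHRF1, a protein that maintains DNA methylation. In the mouse the family has been duplicated many times, and several copies, such as the oogenesins Oog1 to Oog4, are known as oocyte genes, while others are known from testis or from the early embryo.

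The libraries held 8639444 (KO replicate 1) to 44092144 (control replicate 1) counts. Values are counts per 1e6 counts (CPM) after TMM scaling, a scaling factor per library that assumes most genes do not differ. A gene with no count in any control was set against a floor of 3 counts per library, a mean of 0.163 CPM over the controls. That floor covers counting error only. Cnot8 was lower in KO, 35.2 ± 1.40 CPM against 168 ± 20.01 CPM (SD, n = 4 each), and Cnot7 less so, 719 ± 70.8 CPM against 933 ± 77.3 CPM (log2 fold change -0.38, SE 0.11, adjusted p = 0.0105), which was not past the threshold with scaling by library size only (-0.09, adjusted p = 0.385) or with KO replicates 1 and 2 only. Counts over a whole gene include exons outside the floxed part, so they do not give the loss of function. By immunoblot, the study reported that both proteins were depleted in KO oocytes. The 10 oocyte markers were all present, at a summed 15220 to 17740 CPM in KO and 18710 to 21690 CPM in control libraries. 6 of the 10 were lower in KO by FDR alone, none by 2-fold. Lower by the same measure were 24.1% of all genes tested. Among abundant genes, those averaging 100 CPM or more, 1333 of 2414 were lower by it. All the markers but Figla were that abundant. In bulk RNA of this kind, fewer cells with an mRNA and less mRNA per cell cannot be told apart.

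7 of the 9 genes lie on chromosome 4 (GRCm38), inside a cluster of 24 family genes that spans 1014 kb between positions 143394428 and 144408464. Pramel6 and Pramel7 lie 21.8 kb from end to end on chromosome 2, as the only family genes there. A further 18 family genes lie on chromosome 5, 2 on chromosome 12 and 3 on the X chromosome. All 9 are annotated as protein-coding. Their coding sequences are far apart for the most part: Pramef6 and Pramef20 are 59.1% identical over the aligned bases, the lowest of the pairs. The closest pair is Pramef6 and Pramel5, at 87.4%, followed by Pramel7 and Pramef17, at 80.9%, although these last are on different chromosomes. Pramef8 and Pramef25 are 74.9% identical.

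Near-identical copies limit how far reads can be assigned to one gene. Of the 100-base windows of its transcript, 56.4% of those of Pramef17 occur unchanged in another gene, mostly Gm13128. The share was 26.5% for Pramef25, 18.4% for Pramef6, shared chiefly with Gm13083, and 4.05% for Pramel5. Pramef8, Pramef12, Pramef20, Pramel6 and Pramel7 share no such window with any other gene. Values for Pramef17, and to a lesser extent Pramef25 and Pramef6, may therefore hold reads of their copies.

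Promoter sequence from RefSeq (GRCm38.p6) was found for 8 of the 9 genes, and for 43 family genes in all. The letters TATAA, with the first base 40 to 20 bases before the annotated start and on the strand of the gene only, occurred in 1155 of 32851 promoters of mouse genes (3.52%). They occurred in 16 of the 43 family promoters (37.2%). Among the 9 genes the motif was found in Pramef6 alone, at position -32. Several annotated starts, those of Pramef17, Pramef20 and Pramel7 among them, lie close to a start codon, so the window may not be the true promoter there. The 60 bases around the start are shown for Pramef6 and Gm13078, another gene of the cluster, which are identical over a run of 78 bases. They are also shown for Pramef17, for its copy Gm13128 and for the abundant oocyte gene Oog3. Pramef17 and Gm13128 match at 56 of the 60 bases shown. Their longest identical run, of 118 bases, begins at position -167 in Pramef17 and lies upstream of the bases shown. Capitals mark TATAA.
Pramef6 (chr4:143900366-143900425, minus strand): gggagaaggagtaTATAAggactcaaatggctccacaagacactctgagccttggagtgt
Gm13078 (chr4:143719406-143719465, plus strand): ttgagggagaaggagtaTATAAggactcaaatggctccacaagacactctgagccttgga
Oog3 (chr4:144162637-144162696, minus strand): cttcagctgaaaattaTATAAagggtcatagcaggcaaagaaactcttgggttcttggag
Pramef17 (chr4:143994355-143994414, minus strand): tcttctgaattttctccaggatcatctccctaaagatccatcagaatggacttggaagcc
Gm13128 (chr4:144330204-144330263, plus strand): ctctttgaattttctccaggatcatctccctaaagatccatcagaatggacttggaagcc
Of these, Pramef6 and Gm13078 were scarce in the controls and Oog3 was among the most abundant, with TATAA in each of the 3, so the motif was found at both ends of the range of levels.

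The study was concerned with the cytoplasmic polyadenylation element (CPE), a 3'UTR motif through which the protein CPEB sets tail length and translation of oocyte mRNAs. The letters TTTTAT, on the transcript strand, were found in 3 of the 8 members with an annotated 3'UTR. They were found in 20 of the other 40 family genes with one. Of mouse 3'UTRs of 400 to 600 bases, 661 of 1936 held them (34.1%). The 3'UTRs of the members run from 89 to 1686 bases and those of the relatives from 53 to 2040, so these shares are not matched for length. The 30-base sites are shown because the pair Pramef6 and Pramel5 have like sites and differ in level in the KO, though not beyond their spread in control. Capitals mark the motif.
Pramef6 (chr4:143894910-143894939, minus strand): atgtggacatatTTTTATgaagtataagcc
Pramel5 (chr4:144270788-144270817, minus strand): atatggacttatTTTTATggagtataagtc
Pramef8, first site (chr4:143419655-143419684, plus strand): aagatttatttaTTTTATatctgggtggtt
Pramef8, second site (chr4:143420997-143421026, plus strand): ccaggagtaaacTTTTATtttgttaataag
The motif of Pramef6 ends 49 bases before the end of the annotated 3'UTR, and that of Pramel5 167 bases before it. Pramef12, Pramef17, Pramef25, Pramel6 and Pramel7 have a 3'UTR without these letters.

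The 9 genes fell into 3 kinds by their levels in control and KO. Pramef12, Pramef20 and Pramef8 were abundant in control oocytes and had similar values in the KO. Pramef17, at a moderate level in control, and Pramef25 and Pramef6, nearly absent there, were many times higher in every KO library. Pramel5, Pramel6 and Pramel7 were near the limit of detection, and the last pair had counts in no control library and in only 2 of the 4 KO libraries.

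**Figure D1:**
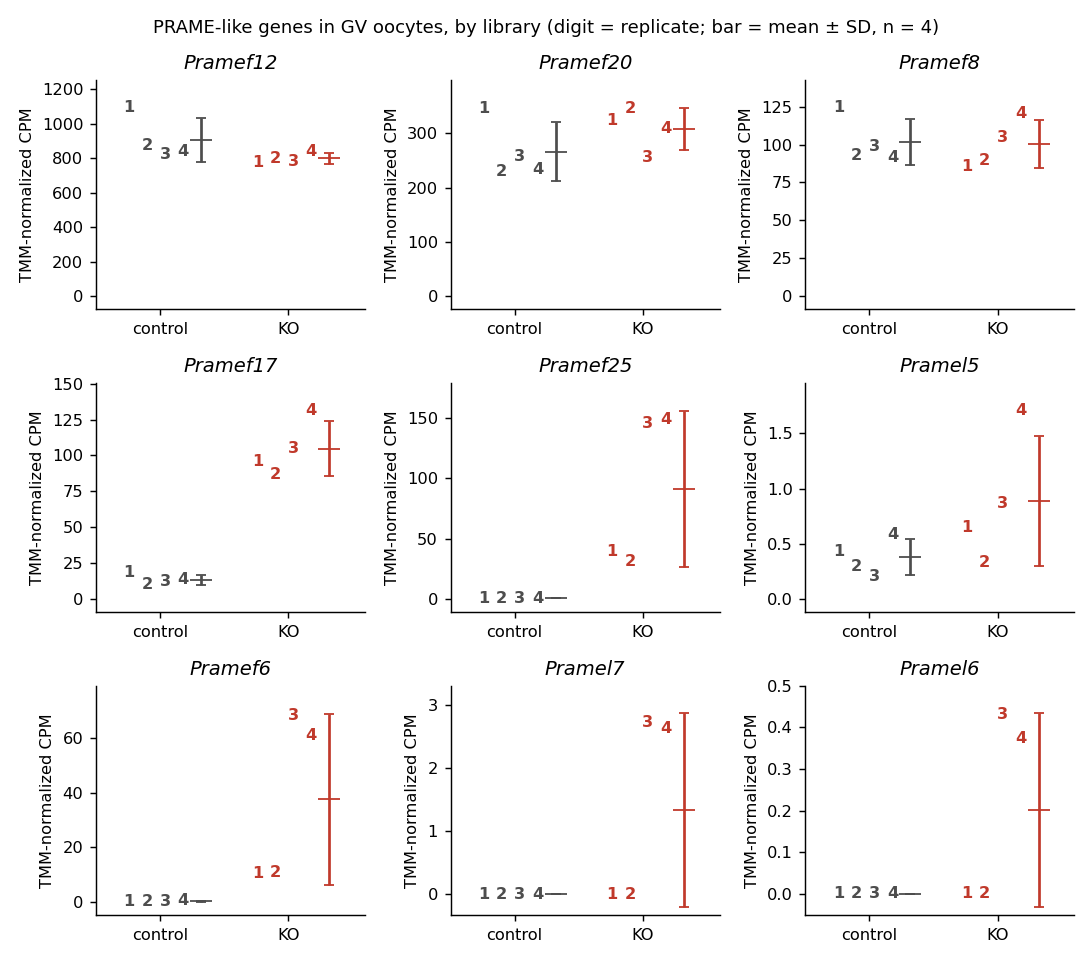
TMM-normalized CPM of each of the 9 PRAME-like genes (vertical axes, each panel on its own linear scale) in control and KO libraries, where each digit is the library of that replicate number and the bar is the mean ± SD of 4 libraries. Pramef17, Pramef25 and Pramef6 have all 4 KO libraries above all 4 controls, whereas Pramef12, Pramef20 and Pramef8 overlap between the groups.

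Pramef12, which is known from spermatogonia, was the most abundant of the 9. It had 1092, 873, 823 and 837 CPM in control replicates 1 to 4, and 776, 800, 780 and 841 CPM in KO replicates 1 to 4. Control replicate 1 stood above the rest, and the groups overlapped. The means were 906 ± 126 CPM in control and 799 ± 30.1 CPM in KO (SD, n = 4 each), a fitted log2 fold change of -0.18 (SE 0.11), and this small difference was positive (0.11) when libraries were scaled by their size only and 0.08 with TMM factors taken from genes at 10 CPM or more.

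Pramef20 came next, with 345, 229, 258 and 234 CPM in the controls and 323, 347, 256 and 308 CPM in the KO libraries. The highest control lay within the KO range, so that the groups overlapped. The log2 fold change was 0.21 (SE 0.15). Pramef8 had 124, 92.6, 98.5 and 91.5 CPM in control, and in KO 85.8, 89.8, 105 and 121 CPM. Its means were 102 and 100.2 CPM, with a log2 fold change of -0.02 (SE 0.14) that was positive under the same 2 other scalings (0.27 and 0.24).

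Pramef17 was present at a moderate level in control oocytes, 18.4, 9.97, 11.9 and 13.6 CPM. In the KO it had 95.8, 86.8, 105 and 131 CPM. The lowest KO library was thus well above the highest control, and the KO libraries stayed close to each other. The ratio of the means was 7.77, and the log2 fold change 2.95 (SE 0.20).

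Pramef25 had 0.615, 0.494, 0.612 and 0.728 CPM in control, from 9 to 23 counts a library. In KO replicates 1 and 2 it had 39.3 and 30.8 CPM, and in KO replicates 3 and 4 it had 145 and 149 CPM. All KO libraries were above all controls, but they formed a lower and a higher pair. The log2 fold change was 7.22 (SE 0.61), or 5.88 with KO replicates 1 and 2 only.

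Pramef6 repeated this arrangement at a lower level. It had 0.241, 0.247, 0 and 0.364 CPM in control, or 9, 5, 0 and 5 counts. The KO libraries had 10.5 and 10.6 CPM in replicates 1 and 2, and 68.2 and 61.0 CPM in replicates 3 and 4, from 97 to 1792 counts. The log2 fold change was 7.39 (SE 0.82), or 5.60 with KO replicates 1 and 2 only. Pramel5, the closest relative of Pramef6 in coding sequence, had no such difference: it had 0.428, 0.296, 0.204 and 0.583 CPM in control, and in KO 0.652, 0.330, 0.864 and 1.70 CPM. These were 3 to 16 counts in control and 6 to 50 in KO. The groups overlapped, and the log2 fold change was 1.28 (SE 0.52), or 0.70 without KO replicate 4.

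Pramel7 had no count in any control library, nor in KO replicates 1 and 2. It had 44 counts (2.71 CPM) in KO replicate 3 and 77 counts (2.62 CPM) in KO replicate 4. Against the floor, the KO mean of 1.33 ± 1.54 CPM was at least 8.20-fold higher, and this value rests on those 2 libraries (at least 5.42-fold without KO replicate 3). Pramel6 had counts in the same libraries only, 7 (0.432 CPM) and 11 (0.375 CPM). Its KO mean of 0.202 CPM lay so close to the floor that no fold is given. Other genes known from the inner cell mass, where Pramel7 is known to act, did not share this distribution: Nanog had 1 count in the controls and 2 counts, both in KO replicate 1, and Fgf4 had none in any library, while Pou5f1 averaged 134 ± 28.6 CPM in KO and 234 ± 55.5 CPM in control. Of the 6 inner cell mass genes listed, 4 were tested and 3 (Sox2, Klf4 and Gata6) were above the thresholds used below, where 23.8% of all genes were. Each of the 3 was above every control in all 4 KO libraries.

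Under the study's thresholds, an FDR no higher than 0.05 together with a change of 2-fold or more, 5 of the 9 genes were above them (Pramef6, Pramef17, Pramef25, Pramel6 and Pramel7) and none was below. Of all 19241 genes tested, 23.8% passed in the higher direction and 6.56% in the lower. Pramel6 and Pramel7 passed the filter on low counts only through their KO libraries and so could not have been found lower. The fitted change of Pramel6 depends on a prior count, and its KO mean lay close to the floor. 3 of the 9 (Pramef6, Pramef17 and Pramef25) had every KO library above every control, as did 27.0% of all genes, and none had every KO library below, as did 21.4%. The members were known from this contrast, so nothing is read from these shares. The median log2 fold change of the 9 was 2.95, or 1.28 with Pramel6 and Pramel7 set at their bounds, against 0.12 for all genes tested. Without KO replicate 3, or without KO replicate 4, Pramel6 and Pramel7 did not pass the filter on low counts and 3 of the 9 were above the thresholds. Pramel5 was added, as the 6th, without KO replicate 2, in the exact test, and under scaling by library size only, by the upper quartile or by genes at 10 CPM or more. DESeq2 gave 4, without Pramel7.

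Level per kilobase of transcript allows the genes to be compared with each other. In control oocytes, Pramef12 had 352 ± 48.8 CPM per kb, Pramef20 186 ± 37.6, Pramef8 24.3 ± 3.66 and Pramef17 7.68 ± 2.05 CPM per kb. Each of these steps was larger than the SDs on either side of it. Pramef25 followed at 0.364 ± 0.0570, Pramel5 at 0.164 ± 0.0716 and Pramef6 at 0.102 ± 0.0733 CPM per kb, of which Pramel5 and Pramef6 did not differ beyond their spread. In the KO the first 2 places were the same, with Pramef12 at 311 ± 11.7 and Pramef20 at 215 ± 26.7 CPM per kb. Pramef17, at 59.7 ± 10.9, and Pramef25, at 54.0 ± 38.4, then came before Pramef8, at 24.0 ± 3.80, and Pramef6, at 18 ± 15 CPM per kb. Pramef25 did not differ from Pramef17 or from Pramef8 beyond its spread, nor did Pramef8 from Pramef6. Pramel7, at 0.625 ± 0.722, Pramel5, at 0.386 ± 0.255, and Pramel6, at 0.0967 ± 0.112 CPM per kb, were last and had overlapping spreads.

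The summed level of the 9 genes was much the same in both groups. The sum was 1581, 1206, 1192 and 1178 CPM in control and 1331, 1365, 1462 and 1616 CPM in KO. Control replicate 1 was high and lay among the KO libraries, so the groups overlapped. The means were 1289 ± 195 and 1443 ± 128 CPM (SD, n = 4 each), a ratio of 1.12, and the ratio was 1.21 without control replicate 1 and 1.11 without Pramef20, the gene matched by identifier. With scaling by library size only the ratio was 1.37. Pramef12 carried most of the sum. Without it, the sum was 333 to 489 CPM in control and 555 to 774 CPM in KO, with no overlap and a ratio of 1.68.

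**Figure D2:**
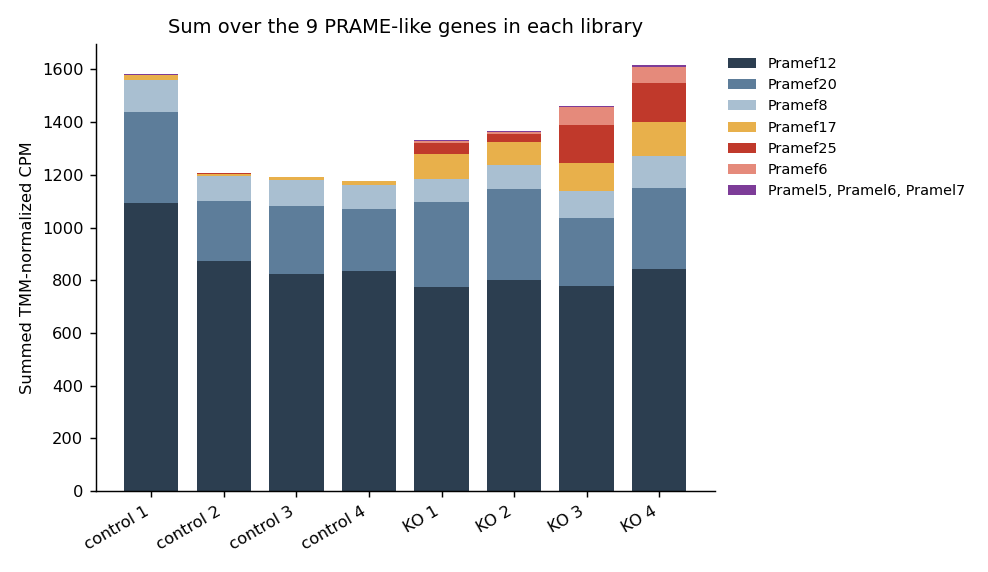
Stacked bars of the summed TMM-normalized CPM of the 9 genes (vertical axis) in each of the 8 libraries (horizontal axis), with one colour per gene and Pramel5, Pramel6 and Pramel7 drawn together. The total runs from 1178 to 1616 CPM without separating the groups, while the upper, coloured segments of Pramef17, Pramef25 and Pramef6 are visible mainly in the KO libraries.

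What differed was the makeup of the sum. Pramef12 had 69.0 to 72.4% of it in control libraries and 52.1 to 58.6% in KO libraries. Pramef20 had a similar share in both groups, 20.6% in control and 21.6% in KO on average. The share of Pramef17 was 1.04% in control and 7.21% in KO, and that of Pramef25 was 0.0483% and 6.09%. For Pramef6 the shares were 0.0167% and 2.50%. In KO replicates 3 and 4, Pramef25 alone gave 9.93% and 9.20% of the sum, more than Pramef8 in the same libraries.

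The KO libraries were not alike. For 7 of the 9 genes, KO replicates 3 and 4 were both above KO replicates 1 and 2, the exceptions being Pramef12 and Pramef20. The ratio of the highest to the lowest KO library was 6.47 for Pramef6 and 4.83 for Pramef25, 1.51 for Pramef17 and 1.09 for Pramef12. By comparison, 33.6% of all genes above the thresholds and 20% of all genes tested had replicates 3 and 4 above 1 and 2. This arrangement was noticed after the values had been seen, and it is given without a test.

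A list of 20 genes known from the 2-cell stage embryo, such as the Zscan4 and Usp17l genes, had the same arrangement. Its sum was 90.3 to 121 CPM in control, 421 and 413 CPM in KO replicates 1 and 2, and 1184 and 1255 CPM in replicates 3 and 4. 19 of the 20 were above the thresholds, where 23.8% of all genes were, and 19 had replicates 3 and 4 above 1 and 2. 6 of the 20 had no count in any control library and so could not have been found lower. The list was chosen with earlier results of these data known, so nothing is read from these counts. The 12 markers of granulosa and cumulus cells, which surround the oocyte, had the opposite order: a sum of 81.9 to 107 CPM in control, 178 and 190 CPM in KO replicates 1 and 2, and 125 and 126 CPM in replicates 3 and 4. 5 of the 11 tested were above the thresholds, where 23.8% of all genes were. By FDR alone, 1 (Cyp19a1) was below the controls, where 24.1% of all genes were, and Foxl2 had 1 count in KO. The 6 blood and macrophage markers summed to at most 1.83 CPM in a control library and to 3.26 to 5.37 CPM in KO. Of the 3 tested, 2 were above the thresholds, against the same 23.8% of all genes, and both haemoglobin genes were at 0 in every library. The part of other cells, or of a difference among the KO collections, in the levels of the PRAME-like genes was not tested. Pramef6, Pramef25 and the 2-cell sum were each above every control in every KO library.

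**Figure D3:**
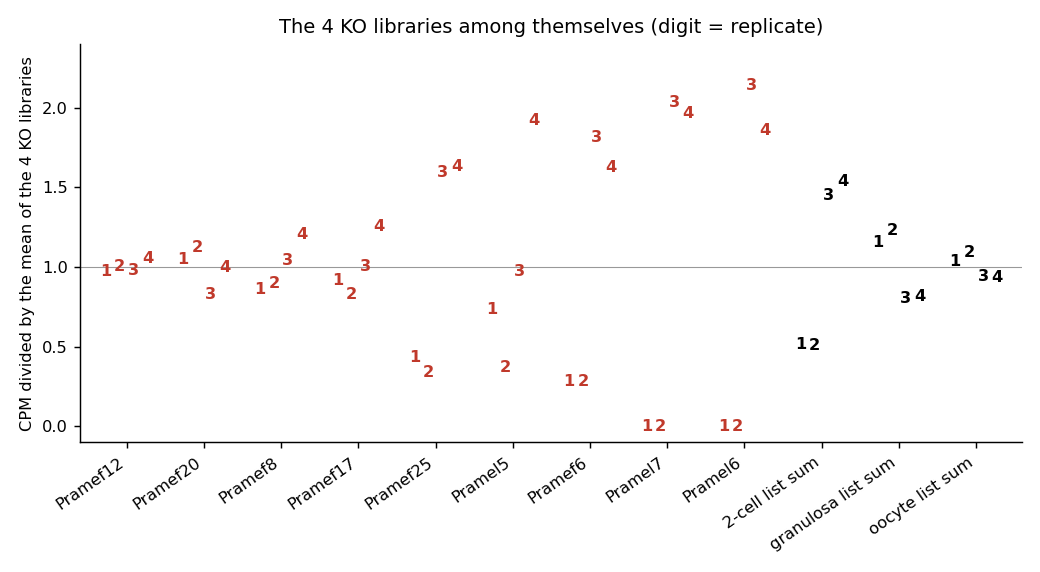
Each KO library's CPM divided by the mean of the 4 KO libraries (vertical axis, linear) for the 9 genes, in red, and for the summed 2-cell, granulosa and oocyte marker lists, in black, where each digit is the replicate number. For Pramef25, Pramef6, Pramel7, Pramel6 and the 2-cell list, replicates 3 and 4 lie above replicates 1 and 2, and for the granulosa and oocyte lists they lie below.

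The other 43 family genes were not chosen for their response and were tested in the fit over all genes by edgeR's quasi-likelihood test, although they share reads and ancestry with the 9 and are not independent of them. 7 of the 43 had no count in any library, Prame itself among them, and 34 passed the filter on low counts. 18 of the 34 were upregulated in KO and none was downregulated at a 2-fold threshold, where 23.8% and 6.56% of all genes were. 8 of the 18 passed the filter only through their KO libraries and so could not have been found lower. Among all genes tested, 1785 of the 3042 that the control libraries alone would not have passed were upregulated. Of the 26 relatives that the control libraries alone would have passed, 10 were upregulated, where 2797 of 16199 such genes were among all tested. By FDR alone, 18 were higher, where 31.2% of all genes were, and 3 were lower (C87414, C87499 and D5Ertd577e), where 24.1% of all genes were. All 3 averaged 100 CPM or more, a level at which 1333 of 2414 genes tested were lower by FDR alone. With exclusion of family genes that share 50% or more of their 100-base windows with another gene, 10 of 21 tested were upregulated, where 23.8% of all genes were.

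The relatives were also divided by level. Of the 13 other family genes that averaged 100 CPM or more over all libraries, 1 was upregulated, Gm13089, where 1.57% of all such genes were. By FDR alone, 3 of the 13 were lower, where 1333 of all 2414 such genes were. Of the 21 with a lower mean, 17 were upregulated, where 27.0% of all such genes were. Of these 21, 8 passed the filter only through KO, all of them upregulated, and 9 of the remaining 13 were upregulated. Over genes of any level, the shares given above were 1785 of 3042 and 2797 of 16199.

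**Figure D4:**
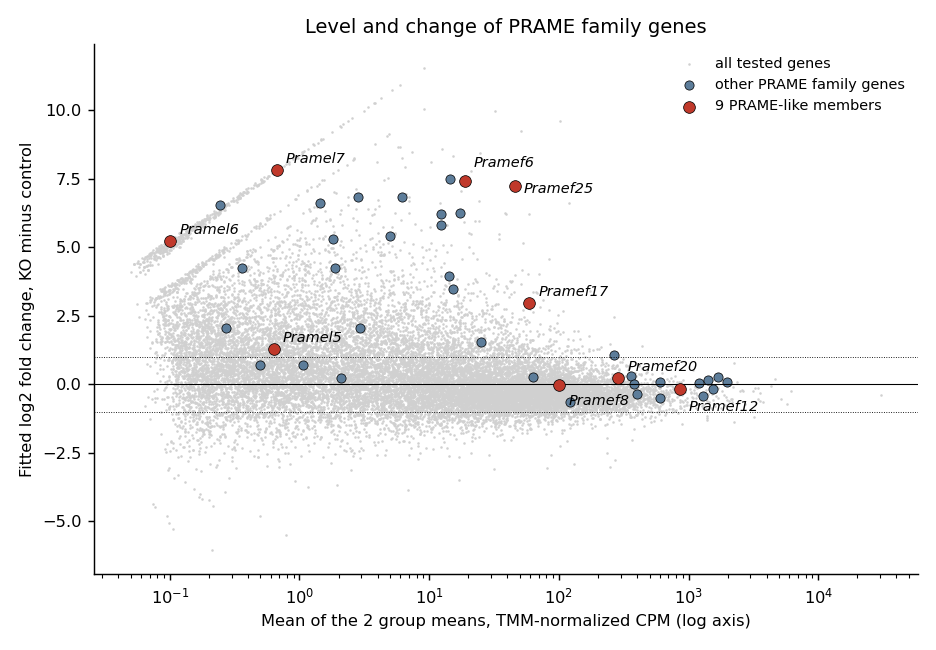
Fitted log2 fold change, KO minus control (vertical axis; dotted lines mark a 2-fold change), against the mean of both group means in TMM-normalized CPM (horizontal log axis) for all 19241 tested genes (grey), 34 other PRAME family genes (blue) and the 9 members (red). Family genes above 100 CPM lie between -0.64 (D5Ertd577e) and 1.07 (Gm13089), and those below it reach 7.48 among the blue points. The fitted values of Pramel6 and Pramel7 depend on a prior count because all controls are at 0.

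Among the abundant relatives, Oog3 was the highest, with 1935 CPM in control and 2026 CPM in KO (log2 fold change 0.07, SE 0.14, adjusted p = 0.70). Gm13084, Gm10436, Gm13023, C87414 and C87977 also had means over 1000 CPM in both groups. Oog1 (0.30, SE 0.16), Oog2 (0.02, SE 0.15) and Oog4 (-0.35, SE 0.19) did not pass the test either. Of these, Oog1 and Oog3 were higher past the FDR with scaling by library size only (0.59, adjusted p = 0.00283, and 0.35, adjusted p = 0.0174) and without control replicate 1. C87499, at 710 CPM in control and 500 CPM in KO, was lower in every KO library than in any control (log2 fold change -0.51, SE 0.12, adjusted p = 0.00357), but this was not past the threshold with scaling by library size only. The summed level of all 52 family genes made up 1.32% of the normalized counts in control and 1.36% in KO, with overlapping groups.

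Gm13089 rose from 172 ± 26.05 CPM in control to 361 ± 26.7 CPM in KO, with 332 to 385 CPM in the 4 KO libraries and none of the spread between pairs described above (log2 fold change 1.07, SE 0.12, adjusted p = 1.91e-05). Gm3106 rose likewise, from 12.8 CPM to 37.5 ± 3.44 CPM (1.55, SE 0.20, adjusted p = 4.1e-05), although 71.5% of its windows occur in another gene. Scarce relatives ranged from no difference (Gm16427, at 1.91 CPM in control and 2.25 CPM in KO, log2 fold change 0.22, SE 0.36) to values like those of Pramef6. Gm13078, which shares its promoter sequence with Pramef6, had 0 to 0.267 CPM in control, and in KO replicates 1 to 4 it had 6.84, 7.47, 46.8 and 54.2 CPM (log2 fold change 7.48, SE 0.90, adjusted p = 2.94e-05).

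Gm13128, the copy of Pramef17, had 0.136 to 0.749 CPM in control, and in KO 15.4, 12.9, 52.4 and 57.2 CPM (6.24, SE 0.62, adjusted p = 7.32e-06). It was thus below Pramef17 in every library, and the KO libraries differed more than those of Pramef17 did. Gm13083 (3.47, SE 0.55, adjusted p = 0.000224) and Gm12794 (3.96, SE 0.57, adjusted p = 0.000113) also rose. 13 of the 18 upregulated relatives had KO replicates 3 and 4 above 1 and 2. Some copies on chromosome 5 were seen chiefly in a single library: Gm3147 had 94 counts in KO replicate 4 and none in the other 7 libraries, and 88.6% of its windows occur in another gene.

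Genes with and without a difference were interspersed in the cluster on chromosome 4. 9 of its 17 relatives were above the thresholds, beside the 3 members already named, where 23.8% of all genes were. Of the 23 neighbouring pairs, 9 differed in this respect. Pramef6 lies 40.6 kb from Gm13103, which had 587 CPM in control, and in KO 618 CPM, and Pramef20 lies 8.30 kb from Gm13119, which had 0.0947 CPM in control, and in KO 12.3 CPM. Between Pramef6 and Pramel4, over 5 genes in a row, every gene was above the thresholds, whereas Pramef20 and Pramef12 at the far end of the cluster, and Oog3, Oog2 and C87977 in between, were not.

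**Figure D5:**
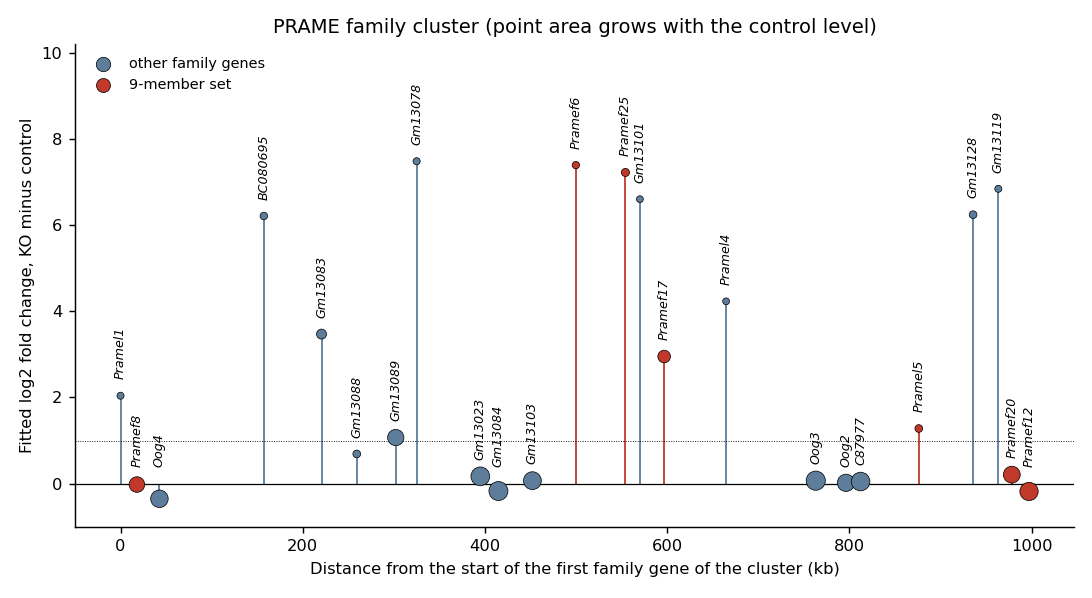
Fitted log2 fold change, KO minus control (vertical axis; the dotted line marks a 2-fold change), of the 24 PRAME family genes of the chromosome 4 cluster against the distance of their start from that of the first gene in kb (horizontal axis), with members in red, relatives in blue and a point area that grows with the logarithm of the control level. Among the large points, the abundant genes, Gm13089 is highest at 1.07, and small points reach 7.48 for Gm13078 and 7.39 for Pramef6.

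The genes of the CUL2 ligase, to which PRAME proteins are known to bind, were examined for their own level. Uhrf1, known as a target of Pramel7 at the protein level, fell from 895 ± 146 CPM in control to 410 ± 96.3 CPM in KO (log2 fold change -1.13, SE 0.17, adjusted p = 0.000164). Its control values were 681, 952, 942 and 1007 CPM, and its KO values 451, 327, 527 and 335 CPM. The groups did not overlap. A link between the Uhrf1 mRNA level and Pramel7 was not tested. Rbx1, the RING subunit, fell from 161 to 125 CPM (-0.37, SE 0.10, adjusted p = 0.00748), but was not past the threshold when libraries were scaled by size only (-0.09, adjusted p = 0.47). Cul2, the scaffold, had 37.6 CPM in control, and in KO 35.4 CPM (adjusted p = 0.63), a difference that changed sign between scalings. The adaptors Elob (listed as Tceb2; -0.47, SE 0.41, adjusted p = 0.34) and Eloc (listed as Tceb1; 0.07, SE 0.10, adjusted p = 0.55) and the modifier Nedd8 (-0.18, SE 0.11, adjusted p = 0.16) did not pass the test. By FDR alone, none of the 6 was higher in KO, where 31.2% of all genes were, and 2 (Uhrf1 and Rbx1) were lower, where 24.1% were. Both averaged 100 CPM or more, a level at which 1333 of 2414 genes tested were lower by FDR alone. By library size only, Eloc was higher and Uhrf1 alone was lower.

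The genes whose pattern over the 8 libraries was most like that of the summed PRAME-like level were Hdac9, a histone deacetylase, RP23-407B16.3, Fmn1, a formin that acts on actin, Pex13, a peroxisomal import protein, and St13, a co-chaperone. Their mean absolute differences from it were 0.032 to 0.040 on the log2 scale after centring. Their likeness to a sum that overlapped between the groups fixes how far they can differ themselves, so no test of them is given. For single members the nearest genes were different ones. This comparison was added after the values had been seen. The 5 nearest to Pramef25 were Gm12800, Usp17lc, a deubiquitinase gene, B020031M17Rik, Rfpl4b and Gm5039, at differences of 0.153 to 0.566. Those nearest to Pramef6 were AF067061, Gm2022, Kdm4dl, Gm12800 and Usp17lc, at 0.278 to 0.443. Gm12800 had 0 to 0.291 CPM in control, and in KO 25.6, 18.3, 71.2 and 81.2 CPM, and Usp17lc and Gm2022 belong to the 2-cell list. The transcript of Gm12794, a PRAME relative, shares more 100-base windows with Gm12800 than with any other gene. Gm12800 may therefore be a relative that the naming did not place in the family, and its likeness to members is not independent of them.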

How the data were processed

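The authors aligned stranded, ribosome-depleted total RNA reads (TruSeq) to GRCm38 (mm10) with STAR 2.6.1d, per the labels, which also name edgeR 3.11; the deposited table holds raw whole-number counts per gene. Here edgeR 4.0.16 (R 4.3.3) was run on these counts: genes with at least 0.2 CPM in at least 2 libraries were kept (19241 of 46078), scaled by TMM and fitted by the quasi-likelihood method with genotype only, all 8 libraries entering, and p-values were adjusted by Benjamini-Hochberg over all tested genes. Upregulated or downregulated means an FDR no higher than 0.05 together with a change of 2-fold or more, as in the study's methods. CPM are counts per 1e6 of the TMM-scaled library size, and SEs come from the fit. As separate animals per library are not stated, p-values measure the spread between these libraries, which may be technical. No 2 libraries of a group agreed within sampling noise.

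The members and gene lists were chosen with earlier results of these data known. The genes named were the 9 members, the 6 most abundant upregulated relatives, relatives with at least 10 CPM in control, 6 genes of a CUL2 list (ligase subunits, Nedd8 and Uhrf1), the 5 genes nearest in profile to the member sum, Cnot7 and Cnot8; single further genes (such as Gm3147) were named after their values were seen. Gene positions, UTRs, coding sequences and shared windows came from GENCODE vM21 (98.2% of identifiers found) and promoters from RefSeq. Alternatives were the exact test, DESeq2 1.42.0, other scalings and filters, no fold threshold, a replicate block and leaving out each library. Other isoforms were not used here, nor were the study's protein measurements, apart from the mention of its immunoblot of Cnot7 and Cnot8.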

Additional observations from a re-analysis of the deposited data

Results flagged for a closer look

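In groups of 4 libraries, a library was singled out when its distance to the nearest other library took up more of the range of its group than Dixon's 95% critical value allows. 84 groups were examined, 11 had such a library, and chance alone flags about 1 group in 20, or 4.20 here. 9 of the 11 concern control replicate 1, the most deeply sequenced library. The summed level of the 9 PRAME-like genes was 1581 CPM there against 1178 to 1206 CPM in the other controls. Of the relatives, C87414 had 1980 CPM (others 1280 to 1352), C87977 1536 CPM (1004 to 1093), Gm13103 763 CPM (515 to 537), Oog4 686 CPM (352 to 403) and Gm3259 73.1 CPM (50.2 to 53.6) in this library. Cul2 had 48.3 CPM (33.1 to 35.1), Cnot7 1049 CPM (886 to 900) and Pex13 193 CPM (154 to 160). Pex13 was selected for its likeness to the member sum, so its departure is not independent of that of the sum. In KO replicate 3, C87977 had 1040 CPM, against 1264 to 1285 CPM in the other KO libraries, and D5Ertd577e 81.4 CPM, against 98.4 to 100.0 CPM. The cause of these departures was not tested.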

How the results depend on the processing

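Pramef6, Pramef17 and Pramef25 were above the thresholds under every alternative run. The number of members above them was 3 with a filter that asks for 1 CPM in 4 libraries and with KO replicates 1 and 2 only, a setting chosen after seeing the data, as were KO replicates 3 and 4 only; leaving out 1 library gave 3 to 6. Scaling by library size only, or by TMM factors from genes of at least 10 CPM, moved the median log2 fold change by 0.29 and 0.25. Under them, 587 and 628 genes were downregulated in place of 1263, 1 gene of the CUL2 list was higher (Eloc) and 1 lower (Uhrf1), and the ratio of the member sums was 1.37 and 1.34. It was 1.22 with KO replicates 3 and 4 only, 1.68 without Pramef12, and 1.09 to 1.21 on leaving out 1 library. The stricter filter gave 2882 upregulated genes in place of 4582. FDR alone gave 4631 lower genes and 3 lower relatives. With KO replicates 1 and 2 only, 1 gene of the CUL2 list (Uhrf1) was lower. Of relatives sharing under 50% of windows, 10 of 21 tested were upregulated, where 23.8% of all genes were in the main fit.

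Leaving out 1 library gave 4233 to 4601 upregulated and 1032 to 1430 downregulated genes, 16 to 19 upregulated relatives, and 2 to 3 lower genes of the CUL2 list, Elob being added without control replicate 1. Apart from Pramef12 and Pramef8 (the latter -0.10 to 0.09 on leaving out 1 library), directions reversed for these named genes, none of which passed the test: under library size only and the TMM alternative, Gm13084 (0.12 and 0.09), Cul2 (0.20 and 0.17) and Nedd8 (0.10 and 0.07); under upper quartile scaling, Cul2 (0.02); and on leaving out 1 control, C87977 (-0.02 to 0.20 over all omissions), Oog2 (-0.06 to 0.21) and Cul2 (-0.14 to 0.06). C87414 was not past the threshold under 7 alternatives and Cnot7 under 3. Calls were gained, as higher in KO, under library size only and the TMM alternative by Oog1, Oog3, Gm10436, Gm13023, Gm13103, Gm3259, C87977 and Eloc. Gm10436 gained one under 6 alternatives and Oog1 under 5. For the 5 genes nearest to the member sum no call is given, because they were selected for their profile.

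Same-numbered libraries did not vary together (correlations of their deviations -0.07, -0.04, 0.11 and -0.12), and the main fit used no pairing. With 4 libraries a group, these correlations cannot exclude that same-numbered libraries were collected together. With a replicate block, 4316 genes were upregulated and 1254 downregulated, with 5 of the 9 members and 17 relatives upregulated, 0 of either downregulated, and 0 genes of the CUL2 list higher and 2 lower (Rbx1 and Uhrf1). The causes of these shifts were not tested. Low counts limit Pramel5, Pramel6 and Pramel7, whose KO libraries held 0 to 77 counts.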
